A study of Homo sapiens with 10 samples.

Results

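The sirtuins are the deacylases that consume NAD, and this account follows the transcripts of all 7 human members, SIRT1 to SIRT7, in Panc1 cells that carried different forms of the transcription factor KLF11. The members were chosen by name. Each was represented by the transcript cluster, the set of probes that the array assigns to a gene, with the highest mean log2 value, and each of the 7 had a single cluster among the 20961 clusters with a gene symbol. The changes of the family against empty vector were known when it was picked, so those changes are given as a description of the arrays. Panc1 is an established human epithelial line from a carcinoma of the pancreas. Cells received adenovirus (multiplicity of infection 150), RNA was taken 48 h later, and Human Gene 1.0 ST arrays were run with 2 arrays for each of 5 conditions. These were KLF11-A347S, KLF11-486 (Δ486 below), KLF11-EAPP, wild type KLF11 and the empty vector control (EV). The study built A347S, a serine substitution in the proline-rich region, to uncouple KLF11 from WD40 proteins. Δ486 lacks the extreme C terminus, the contact for the heterochromatin protein HP1α. EAPP carries prolines in the domain that binds the Sin3 scaffold and through it the histone deacetylases HDAC1 and HDAC2. Every construct was overexpressed on top of the cells' own KLF11, and EV cells were exposed to the same type of virus. RNA came from pooled cultures and was arrayed in technical duplicate by the methods and the extract protocol, although the sample titles number biological replicates. Each SD, standard error and p below therefore rests on the spread between arrays.

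Sirtuins couple the removal of acyl groups from lysines to the cleavage of NAD, which releases nicotinamide, itself an inhibitor of the reaction. They differ from the zinc-dependent histone deacetylases, which need no NAD. SIRT1, SIRT6 and SIRT7 work in the nucleus, SIRT2 mainly in the cytosol, and SIRT3, SIRT4 and SIRT5 in mitochondria. In the pancreas, SIRT1 and SIRT4 are both known for effects on insulin secretion by beta cells, in opposite directions in mice. KLF11 itself is a diabetes gene, a zinc finger factor of the SP/KLF family that binds GC-rich promoters.

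Values are log2 expression after Robust Multiarray Analysis (RMA), so that 1 unit is a doubling. They lay between 6.81 and 6.87 at the median of each array, and arrays of a condition correlated at 0.996 to 0.997 across clusters. The KLF11 cluster read 8.85 and 8.88 in A347S cells, 8.72 and 8.83 in Δ486 cells, 8.78 and 8.68 in EAPP cells and 8.82 and 8.85 in wild type KLF11 cells, against 8.37 and 7.75 in EV cells. All 8 construct arrays thus lay above both EV arrays. Both EAPP arrays lay below both wild type KLF11 arrays (difference -0.11, 95% interval -0.46 to 0.25, limma adjusted p = 0.742). The error of that interval is shared by all conditions, and the EV arrays lay 0.62 apart, so it says little of a small difference. The study reports similar protein levels of the constructs by Western blot. No source used here says whether the probes of the KLF11 cluster read the viral transcript, the cells' own, or both. Of the epithelial markers, KRT8 and KRT18 were bright on every array (12.18 to 13.25), KRT19 was lower than in EV by 1.51 (A347S), 1.06 (Δ486), 0.44 (EAPP) and 0.99 (wild type KLF11), and KRT7 stayed between 6.28 and 6.52. Measured acinar, endocrine and leukocyte markers lay between 3.44 and 6.58, and the fibroblast markers lay between 3.25 and 8.31, the highest being COL1A1.

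The study names the hexamer CCCCGC and the variant CCCCAC as sequences that KLF11 binds. The promoters of the members were searched for both, on either strand, from 250 bases before to 50 bases after the annotated transcript start. The study also mapped KLF11 binding by chromatin immunoprecipitation over a wider stretch around each start. It places most peaks further from the start than the stretch searched here reaches. Those binding data were not used, and the sequence beyond this stretch was not searched. RefSeq promoters of GRCh38.p14 were available for 6 of the 7 members, 9 starts in all, and SIRT7 had no entry in the table used. Of all 35116 promoters of this length, 41.6% held CCCCGC, 33.3% held CCCCAC and 57.2% held at least 1 of them, while 45% held the GC box GGGCGG bound by many SP/KLF factors, which can overlap CCCCGC. The promoters below are shown because they bracket the family, namely both starts of SIRT4 and the start of SIRT2, whose transcripts were higher with KLF11, the start of SIRT1, whose transcript was lower, and the second start of SIRT6, which held the most matches. Capitals mark matches to either hexamer or to its reverse complement.
SIRT4 start 1, chr12:120291939-120292238, plus strand: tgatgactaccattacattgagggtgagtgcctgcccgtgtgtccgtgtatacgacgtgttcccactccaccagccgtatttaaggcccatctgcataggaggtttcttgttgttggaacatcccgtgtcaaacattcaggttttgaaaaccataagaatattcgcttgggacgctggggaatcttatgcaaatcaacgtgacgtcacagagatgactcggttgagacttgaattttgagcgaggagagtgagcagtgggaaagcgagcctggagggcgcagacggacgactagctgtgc
SIRT4 start 2, chr12:120302071-120302370, plus strand: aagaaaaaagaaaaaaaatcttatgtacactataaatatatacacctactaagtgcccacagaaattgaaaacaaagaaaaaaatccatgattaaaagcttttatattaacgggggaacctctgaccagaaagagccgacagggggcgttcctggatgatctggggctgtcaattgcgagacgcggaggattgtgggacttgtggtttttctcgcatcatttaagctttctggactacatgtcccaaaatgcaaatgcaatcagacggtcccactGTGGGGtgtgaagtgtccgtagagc
SIRT2, chr19:38899569-38899868, minus strand: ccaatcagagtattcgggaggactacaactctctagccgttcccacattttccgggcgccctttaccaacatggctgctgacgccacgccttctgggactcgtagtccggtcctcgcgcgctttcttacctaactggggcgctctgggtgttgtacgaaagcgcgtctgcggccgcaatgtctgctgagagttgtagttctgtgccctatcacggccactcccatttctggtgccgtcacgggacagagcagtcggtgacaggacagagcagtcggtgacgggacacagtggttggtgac
SIRT1, chr10:67884406-67884705, plus strand: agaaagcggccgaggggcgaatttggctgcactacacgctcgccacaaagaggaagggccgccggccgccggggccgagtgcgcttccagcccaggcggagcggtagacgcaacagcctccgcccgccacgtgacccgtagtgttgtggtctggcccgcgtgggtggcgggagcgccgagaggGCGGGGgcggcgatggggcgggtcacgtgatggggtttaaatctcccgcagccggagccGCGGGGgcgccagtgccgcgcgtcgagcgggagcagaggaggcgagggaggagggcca
SIRT6 start 2, chr19:4182514-4182813, minus strand: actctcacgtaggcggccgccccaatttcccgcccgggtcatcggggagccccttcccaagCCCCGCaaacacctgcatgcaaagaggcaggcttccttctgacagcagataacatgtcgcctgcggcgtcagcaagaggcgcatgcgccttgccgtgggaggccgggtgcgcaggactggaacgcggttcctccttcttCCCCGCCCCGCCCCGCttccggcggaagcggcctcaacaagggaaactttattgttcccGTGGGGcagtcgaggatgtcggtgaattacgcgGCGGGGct

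The first SIRT4 start and the SIRT2 start held no match to either sequence and no GC box. At the second SIRT4 start there was 1 match, CCCCAC on the opposite strand, from 25 to 30 bases past the start. By contrast, the SIRT1 promoter held 2 matches and 4 GC boxes, and that of SIRT3 (chr11:236882-237181, minus strand) held 3 matches and 1 GC box. The starts of SIRT5 held 1 and 2 matches, and those of SIRT6 held 2 and 6. For each of these genes the searched stretches of the 2 starts overlap, so the counts are not of separate sites. Both matches at the first SIRT6 start are also among the 6 at the second. The CCCCAC match of SIRT5 is likewise counted at both starts. At the second SIRT6 start, adjoining CCCCGC matches share bases. Bases were G or C in 50.3% and 42.3% of the SIRT4 promoters and 58.7% of that of SIRT2, against 65.0% to 76.3% in those of SIRT1, SIRT3, SIRT5 and SIRT6 and a median of 58.7% over all promoters. A match is a string of letters and not a measured site, and the absence of one says nothing of the factor.

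**Figure D1:**
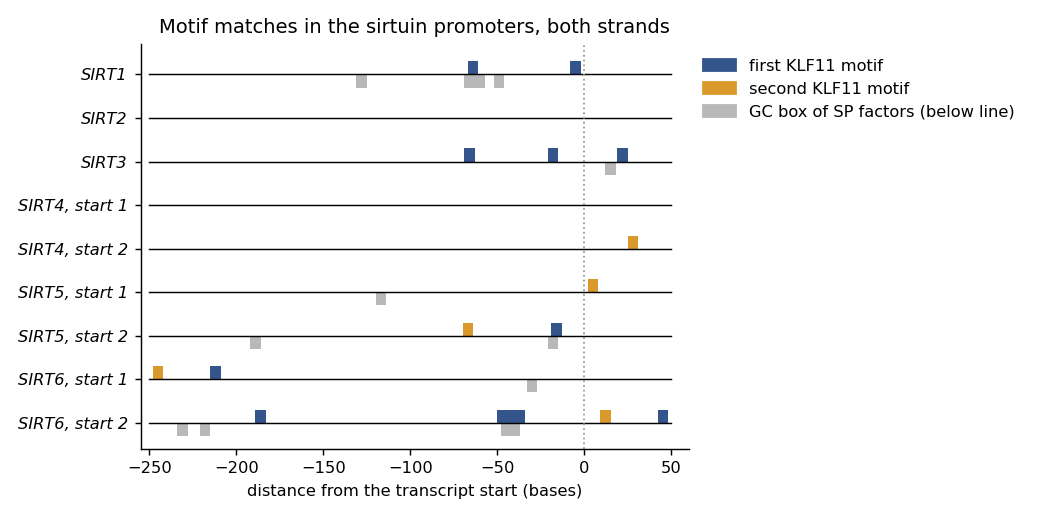
Matches to CCCCGC (first KLF11 motif), CCCCAC (second) and GGGCGG (GC box, below the line) along the 9 promoters of 6 sirtuins, with the distance from the transcript start in bases on the x axis. The first SIRT4 start and SIRT2 hold none of the 3, whereas the second SIRT6 start holds 6 KLF11 matches and 4 GC boxes.

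SIRT4, which ADP-ribosylates glutamate dehydrogenase and removes lipoyl groups in mitochondria, had the widest span of the family. Its cluster (gene at chr12:120291780-120313249, GRCh38.p14) read 7.90 and 8.06 in A347S cells, 7.54 and 7.80 in Δ486 cells, 6.27 and 6.23 in EAPP cells and 8.01 and 7.60 in wild type KLF11 cells, against 6.05 and 5.60 in EV cells. The arrays of A347S, Δ486 and wild type KLF11 all lay more than 1 log2 unit above those of EAPP and EV. Among those 3 constructs, the arrays of wild type KLF11 overlapped those of both mutants. The EAPP arrays stood just above the EV arrays, by less than the 0.44 between the EV arrays themselves. The mean was 7.98 ± 0.11 with A347S, 7.67 ± 0.19 with Δ486, 6.25 ± 0.03 with EAPP and 7.81 ± 0.29 with wild type KLF11, against 5.83 ± 0.31 with EV (SD, n = 2 arrays each). Against EV this was 4.44-fold for A347S (log2 change 2.15, 95% interval 1.77 to 2.53), 3.59-fold for Δ486 (1.84, 1.46 to 2.22), 1.34-fold for EAPP (0.42, 0.04 to 0.80) and 3.94-fold for wild type KLF11 (1.98, 1.60 to 2.36). Ordered from the highest change, SIRT4 was 15th of the 20961 clusters with A347S, 14th with Δ486, 90th with EAPP and 8th with wild type KLF11. The table holds no detection call, so whether the EV values of SIRT4 lie above background is not known.

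SIRT2, the cytosolic deacetylase of α-tubulin (gene at chr19:38878555-38899618), was the other member that was higher with the constructs. It read 10.95 and 10.95 in A347S cells, 10.82 and 10.90 in Δ486 cells, 10.32 and 10.11 in EAPP cells and 10.58 and 10.57 in wild type KLF11 cells, against 10.03 and 9.98 in EV cells. No condition overlapped its neighbour in the order A347S, Δ486, wild type KLF11, EAPP and EV. The log2 change against EV was 0.94 ± 0.08 for A347S (SE, 1.92-fold), 0.86 ± 0.08 for Δ486 (1.81-fold), 0.21 ± 0.08 for EAPP and 0.57 ± 0.08 for wild type KLF11 (1.48-fold).

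SIRT1, the nuclear deacetylase of histones, p53 and FOXO factors (gene at chr10:67884656-67918390), ran the opposite way. It read 9.79 and 9.58 in A347S cells, 9.90 and 9.87 in Δ486 cells, 10.28 and 10.21 in EAPP cells and 9.91 and 9.96 in wild type KLF11 cells, against 10.33 and 10.39 in EV cells. EV was highest, EAPP followed, and the remaining constructs lay below both without overlap. The log2 change was -0.67 ± 0.08 for A347S, -0.48 ± 0.08 for Δ486, -0.11 ± 0.08 for EAPP and -0.42 ± 0.08 for wild type KLF11. That of A347S, 1.60-fold, was the only one beyond 1.5-fold, and it was -0.57, short of 1.5-fold, without the second A347S array.

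SIRT3, the main deacetylase of mitochondria (gene at chr11:215030-236931), read 8.20 and 8.25 in A347S cells, 8.44 and 8.30 in Δ486 cells, 8.54 and 8.88 in EAPP cells and 8.29 and 8.34 in wild type KLF11 cells, against 8.84 and 8.81 in EV cells. The EAPP arrays lay on either side of the EV arrays, and the 6 arrays of the other constructs lay below both conditions. The change was -0.60 ± 0.11 for A347S (1.51-fold), -0.46 ± 0.11 for Δ486, -0.12 ± 0.11 for EAPP and -0.51 ± 0.11 for wild type KLF11. For A347S the 1.5-fold was met by a narrow margin: the change was -0.52 after cyclic loess scaling, -0.50 after quantile scaling, -0.57 without the first A347S array and -0.58 without the first EV array, none of them called.

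SIRT5, which strips succinyl and malonyl groups in mitochondria (gene at chr6:13574274-13615158), read 6.99 and 6.92 in A347S cells, 7.04 and 6.98 in Δ486 cells, 7.48 and 7.36 in EAPP cells and 7.23 and 7.18 in wild type KLF11 cells, against 7.49 and 7.42 in EV cells. SIRT7, a nucleolar deacetylase tied to ribosomal RNA transcription (gene at chr17:81911939-81918176), read 8.31 and 8.44 in A347S cells, 8.36 and 8.52 in Δ486 cells, 8.75 and 8.83 in EAPP cells and 8.48 and 8.50 in wild type KLF11 cells, against 8.84 and 8.83 in EV cells. For both genes EAPP overlapped EV, and the arrays of A347S, Δ486 and wild type KLF11 lay below the EV arrays by less than 1.5-fold. The change of SIRT5 was -0.50 with A347S, -0.44 with Δ486, -0.03 with EAPP and -0.25 with wild type KLF11, each ± 0.08, and that of SIRT7 was -0.46, -0.39, -0.04 and -0.34 in the same order, also ± 0.08.

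SIRT6, a chromatin deacylase linked to DNA repair and to the restraint of glycolytic genes (gene at chr19:4174109-4182563), moved least with A347S, Δ486 and wild type KLF11. With EAPP, SIRT5 and SIRT7 moved less than SIRT6. The SIRT6 cluster read 7.0 and 7.07 in A347S cells, 6.93 and 6.87 in Δ486 cells, 6.93 and 7.09 in EAPP cells and 6.79 and 6.85 in wild type KLF11 cells, against 6.92 and 6.92 in EV cells. The change was 0.11 with A347S, -0.02 with Δ486, 0.09 with EAPP and -0.10 with wild type KLF11, each ± 0.08, and every 95% interval held 0. Their highest end was 0.29, with A347S, and their lowest was -0.28, with wild type KLF11, so a change of 1.5-fold (0.58) lay outside all of them.

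**Figure D2:**
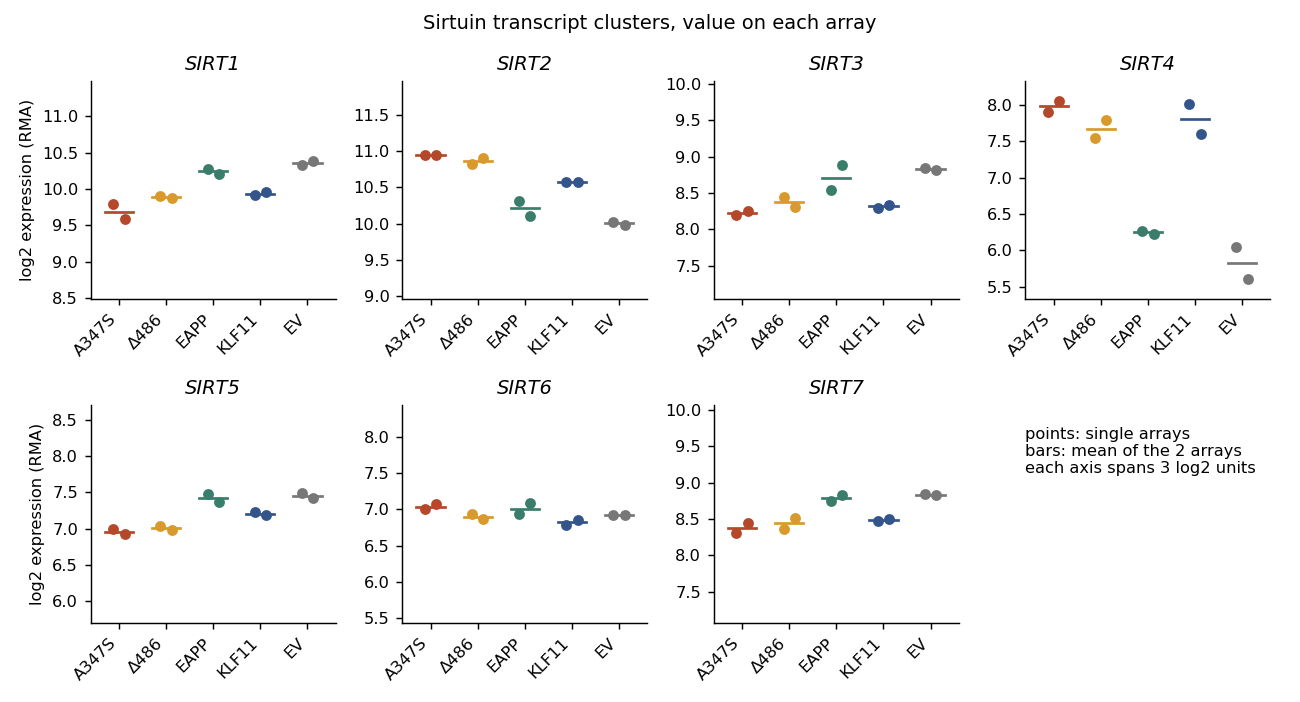
Log2 expression (RMA) of the 7 sirtuin clusters on each of the 10 arrays, by condition, with points for arrays and bars for the mean of 2, and every y axis spanning 3 log2 units. SIRT4 lies at 6.27 and 6.23 with EAPP and between 7.54 and 8.06 with the other constructs, against 6.05 and 5.60 with EV.

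Calls required both a change of at least 1.5-fold and a limma p under 0.05 after Benjamini-Hochberg adjustment over all 20961 clusters. Against EV, A347S called 4 of the 7 members (SIRT1, SIRT2, SIRT3 and SIRT4), beside 8.98% of all clusters. Δ486 called 2 (SIRT2 and SIRT4, beside 5.61%), EAPP called 0, beside 0.00477%, a single cluster, and wild type KLF11 called 1 (SIRT4, beside 3.99%). With the adjusted p alone, the members were 6 for A347S (28.4% of all clusters), 6 for Δ486 (22.4%), 0 for EAPP (0.00477%) and 5 for wild type KLF11 (17.3%). EAPP had 2 members, SIRT2 and SIRT4, at an unadjusted p under 0.05, where 8.73% of all clusters stood, and 0 with the 1.5-fold added, where 0.181% did. Since the family was proposed with these contrasts in view, nothing is read from the counts. With single arrays left out the counts stayed at 2 for Δ486 and 0 for EAPP. They were 3 or 4 for A347S, and 1 or 2 for wild type KLF11, where SIRT2 was called without the first EV array at 0.59.

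Construct and EV arrays did not overlap for 7 members with A347S, 6 with Δ486, 4 with EAPP and 7 with wild type KLF11, and the share of all clusters was 63.6%, 61.7%, 39.3% and 57.6% in that order. Non-overlap of 2 against 2 arrays was thus common in these data. The median change over the 7 members was -0.46 with A347S, -0.39 with Δ486, -0.03 with EAPP and -0.25 with wild type KLF11, where the median of all clusters was 0.01, 0.02, 0.00 and -0.02. The 4 comparisons share the EV arrays.

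**Figure D3:**
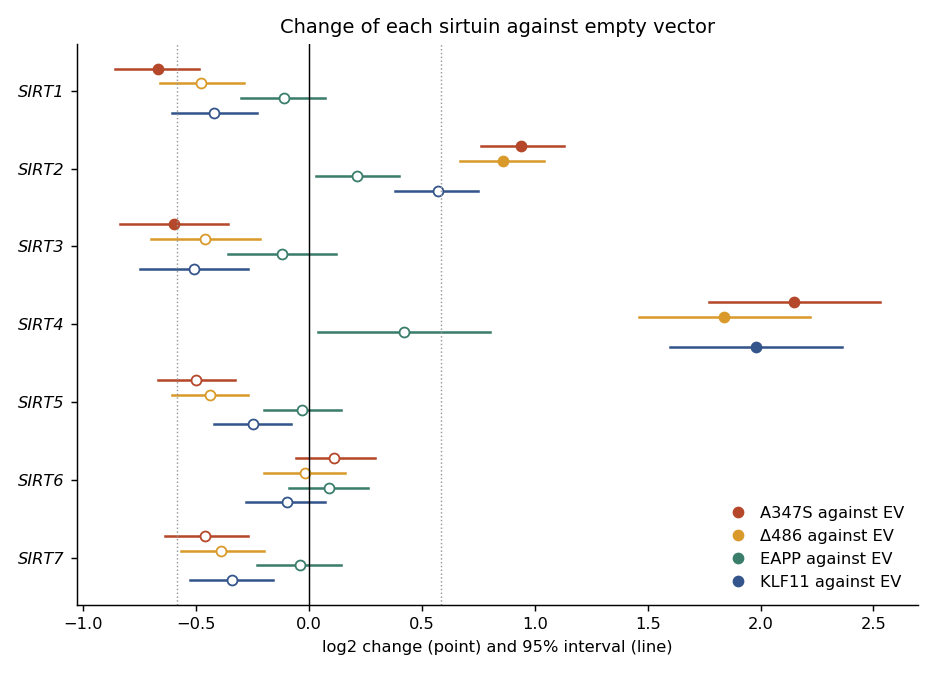
Log2 change of each sirtuin against EV for the 4 constructs, as points with 95% intervals (lines), filled where called and with dotted lines at 1.5-fold. SIRT4 stands at 2.15 with A347S, 1.84 with Δ486, 0.42 with EAPP and 1.98 with wild type KLF11, and SIRT6 stays between -0.10 and 0.11.

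EAPP was then set against the other constructs, to describe how the sirtuins read with a construct made not to bind Sin3. The cells' own KLF11 was still present, and binding to Sin3 was not measured on these arrays. These differences were fitted in the same model. They use the construct arrays that also enter the changes against EV, so they are not independent of those. Each follows from the changes of the compared constructs against EV, which were known when the family was picked. The differences and their p values are therefore a description too, as are those between the other constructs below. SIRT4 was lower with EAPP than with wild type KLF11 by 2.94-fold (log2 difference -1.56, 95% interval -1.94 to -1.18, limma adjusted p = 0.00094). It was lower than with A347S by 3.31-fold (difference -1.73, -2.11 to -1.35, adjusted p = 0.000176) and than with Δ486 by 2.67-fold (-1.42, -1.80 to -1.04, adjusted p = 0.000964). All 3 were called. With any single array left out the difference from wild type KLF11 stayed between -1.76 and -1.35, with an adjusted p of at most 0.0119.

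SIRT2 was lower with EAPP than with A347S (difference -0.73, 95% interval -0.92 to -0.55, limma adjusted p = 0.000351) and than with Δ486 (-0.65, -0.83 to -0.46, adjusted p = 0.00127), both called. The second of these rested on the arrays in hand, since without the second EAPP array it was -0.54, short of 1.5-fold. From wild type KLF11, SIRT2 differed by -0.35 (-0.54 to -0.17, adjusted p = 0.0259), which passed the adjusted p but not the fold.

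SIRT1, SIRT3, SIRT5 and SIRT7 were higher with EAPP than with the other constructs, none by the 1.5-fold. From A347S, SIRT1 differed by 0.56 (limma adjusted p = 0.00124), SIRT3 by 0.48 (0.0101), SIRT5 by 0.47 (0.00208) and SIRT7 by 0.42 (0.0054). From Δ486 the differences were 0.36 for SIRT1 (0.0176), 0.34 for SIRT3 (0.0645), 0.41 for SIRT5 (0.00706) and 0.35 for SIRT7 (0.0206). From wild type KLF11 they were 0.31 for SIRT1 (0.0443), 0.39 for SIRT3 (0.0467), 0.22 for SIRT5 (0.106) and 0.30 for SIRT7 (0.0486). The last set was the least secure. SIRT1, SIRT3 and SIRT7 lost the adjusted p against wild type KLF11 on leaving out most single arrays (8, 9 and 8 of the 10). Arrays of conditions outside the comparison were among these. SIRT2 lost it with 3 arrays. Over such fits the difference lay between 0.27 and 0.34 for SIRT1 and between -0.46 and -0.25 for SIRT2. It lay between 0.23 and 0.56 for SIRT3 and between 0.26 and 0.34 for SIRT7. SIRT6 differed by 0.19 from wild type KLF11 (0.01 to 0.37, adjusted p = 0.17), by -0.03 from A347S (-0.20 to 0.15, 0.864) and by 0.11 from Δ486 (-0.07 to 0.29, 0.431).

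In counts, EAPP against wild type KLF11 called 1 member, where 2.51% of all clusters were called, and 5 passed the adjusted p alone, where 10.8% did. Against A347S these were 2 (6.01%) and 6 (23.4%), and against Δ486 they were 2 (3.26%) and 5 (15%). With single arrays left out the members that passed the adjusted p alone were 1 to 3, 5 to 6 and 3 to 5 in the same order. SIRT4 alone passed it in every such fit against wild type KLF11, while SIRT3 lost it against A347S in some, as did SIRT1 and SIRT7 against Δ486. The arrays did not overlap for 7, 6 and 6 members, where 53.1%, 56.9% and 52.5% of all clusters did not. Since the family was picked with the changes against EV known, nothing is read from these counts either.

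**Figure D4:**
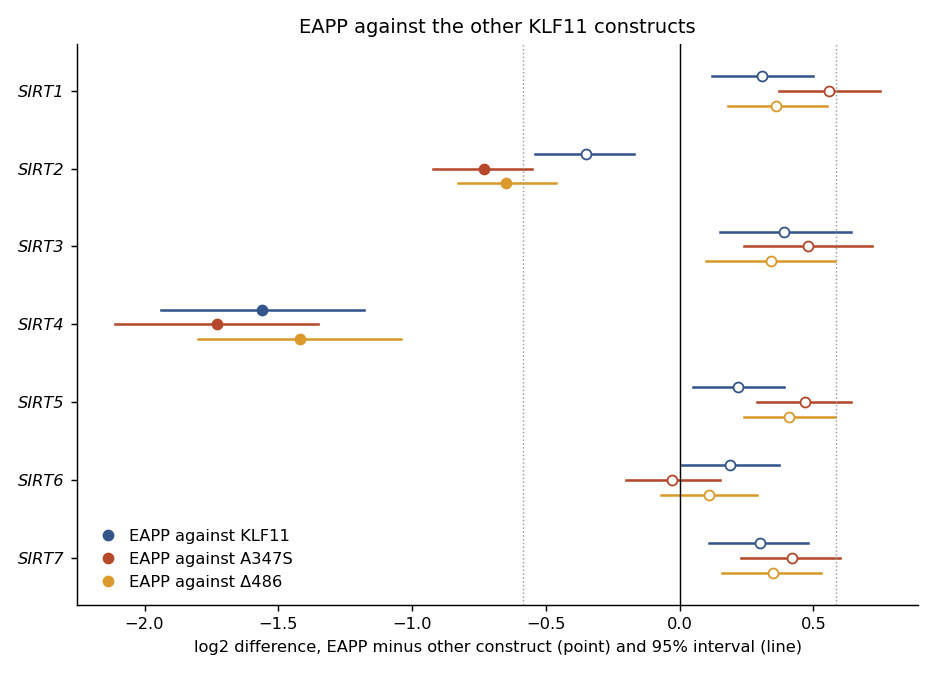
Log2 difference of each sirtuin, EAPP minus wild type KLF11, A347S or Δ486, as points with 95% intervals (lines), filled where called and with dotted lines at 1.5-fold. SIRT4 lies at -1.56, -1.73 and -1.42 and SIRT2 at -0.35, -0.73 and -0.65, while the other members lie between -0.03 and 0.56.

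A347S and Δ486 were also set against wild type KLF11 and against each other, comparisons in which limma called 0 of all clusters (0%). A347S exceeded wild type KLF11 for SIRT2 by 0.38 (95% interval 0.19 to 0.57, adjusted p = 0.172) and for SIRT6 by 0.22 (0.04 to 0.39, adjusted p = 0.272), and differed from it by -0.25 for SIRT1 (-0.44 to -0.07, adjusted p = 0.24) and by -0.25 for SIRT5 (-0.42 to -0.08, adjusted p = 0.219). These 4 members had an unadjusted p under 0.05, as did 14.4% of all clusters. Δ486 and wild type KLF11 differed at that level in SIRT2 (0.29, 0.11 to 0.48, adjusted p = 0.383) and SIRT5 (-0.19, -0.36 to -0.02, adjusted p = 0.438), beside 10.5% of all clusters. A347S and Δ486 did so in SIRT1 alone (-0.20, -0.38 to -0.01, adjusted p = 0.664), beside 7.43%.

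For SIRT4 the difference was 0.17 between A347S and wild type KLF11 (95% interval -0.21 to 0.55, limma adjusted p = 0.685), -0.14 between Δ486 and wild type KLF11 (-0.52 to 0.24, adjusted p = 0.784) and 0.31 between A347S and Δ486 (-0.07 to 0.69, adjusted p = 0.689). The upper end of the last interval passes 1.5-fold, so the interval includes differences of that size between the 2 mutants. The sign of the difference from wild type KLF11 turned for A347S without the second wild type array (-0.04) and for Δ486 without the first (0.07). Arrays did not overlap for 6 members between A347S and wild type KLF11 (47.7% of all clusters), 4 between Δ486 and wild type KLF11 (42.8%) and 5 between A347S and Δ486 (37.1%).

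Clusters with the pattern most like that of a sirtuin were ranked by Pearson's r over the 10 arrays, which fall into conditions that share values, so r is a description only. For SIRT4 they were ZNF266, a zinc finger gene (r = 0.995), TTC27 (0.995), the magnesium transporter SLC41A1 (0.995), KIAA0825 (0.992) and RIDA, an imine deaminase (0.991). KIAA0825 was higher than in EV by 2.68 (A347S), 2.28 (Δ486), 0.49 (EAPP) and 2.50 (wild type KLF11), and RIDA by 1.72, 1.48, 0.38 and 1.39 in the same order. SLC41A1, at 0.52, 0.45, 0.12 and 0.43, shared the pattern at a much smaller size. For SIRT2 the nearest were the tetraspanin TSPAN12 (0.993), the phospholipase DDHD1 (0.991) and the proton pump subunit ATP6V0A2 (0.990).

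For SIRT1 the nearest were NELFCD of the negative elongation factor (0.995), the chromatin remodelling ATPase INO80 (0.993) and the RNA binding protein RBM27 (0.993), and the changes of NELFCD were -1.12 (A347S), -0.86 (Δ486), -0.24 (EAPP) and -0.71 (wild type KLF11). For SIRT3 they included RPA3 of the replication protein A complex (0.984) and the cyclophilin PPIB (0.979). Within the family, SIRT2 correlated with SIRT4 at 0.928 and was only 899th among clusters ranked by likeness to SIRT4, while SIRT1, SIRT3, SIRT5 and SIRT7 ran against SIRT4 at -0.949, -0.936, -0.880 and -0.922. SIRT6 followed neither, with r of -0.169 to SIRT4 and -0.113 to SIRT1.

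The genes around the sirtuins were read from 6 lists, which describe the supply and use of NAD, proteins that regulate sirtuins, their substrates and the zinc-dependent deacetylases. Over all clusters, A347S called 3.63% higher and 5.35% lower, Δ486 2.38% and 3.23%, and wild type KLF11 2.21% and 1.78%. Of 18 measured genes of NAD synthesis, A347S called 2 lower, Δ486 0 and wild type KLF11 1, and none was called higher. NAMPT, the rate-limiting enzyme of NAD salvage, had a called change of -0.74 with A347S, beside -0.55 for Δ486, -0.18 for EAPP and -0.48 for wild type KLF11. NADSYN1, the glutamine-dependent NAD synthetase, had -0.75 with A347S and -0.62 with wild type KLF11, both called, and it had -0.57 with Δ486 and 0.10 with EAPP. Its difference of EAPP from wild type KLF11, 0.72, was called (limma adjusted p = 0.00346). The gene was named by its p against EV, and the contrasts share arrays, so this p is not independent of that choice. AFMID of the kynurenine route had -0.38, -0.19, 0.02 and -0.08 and the mitochondrial NAD kinase NADK2 -0.47, -0.33, -0.09 and -0.30 with A347S, Δ486, EAPP and wild type KLF11, none called. With the adjusted p alone, 1 gene of this list was higher and 6 lower with A347S. These were 1 and 3 with Δ486 and 1 and 2 with wild type KLF11. Over all clusters 28.4%, 22.4% and 17.3% passed it in either direction, in that order.

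The 19 genes that consume NAD or nicotinamide, mostly ADP-ribosyltransferases, held no call in any comparison with EV. With the adjusted p alone, 2 were higher and 2 lower in A347S cells, 1 and 2 in Δ486 cells, 0 and 0 in EAPP cells and 2 and 1 in wild type KLF11 cells. The shares of all clusters that passed it in either direction were 28.4%, 22.4%, 0.00477% and 17.3% in that order. The 4 with the smallest p were PARP6 (-0.52, -0.40, -0.14 and -0.31 with A347S, Δ486, EAPP and wild type KLF11), PARP14 (-0.50, -0.35, -0.22 and -0.19), PARP16 (0.44, 0.16, -0.12 and 0.45) and PARP2 (0.38, 0.27, 0.03 and 0.37). These therefore pointed both ways. Among 15 sirtuin regulators 1 was called, KAT2B, an acetyltransferase, which was lower in A347S cells (-0.75) and in Δ486 cells (-0.68). The EAPP value was -0.22 and that of wild type KLF11 was -0.51. The SIRT1 inhibitor CCAR2 (also DBC1) had -0.46, -0.26, -0.04 and -0.22, the corepressor CTBP1 -0.49, -0.34, -0.09 and -0.25 and the acetyltransferase KAT5 -0.54, -0.29, -0.12 and -0.32 in that order, none called.

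Of 28 measured substrates of mitochondrial sirtuins, A347S called 3 lower, Δ486 called 2 and wild type KLF11 called 1. IDH2, the mitochondrial isocitrate dehydrogenase that SIRT3 deacetylates, was lower in all 3 (A347S -0.98, Δ486 -0.90, wild type KLF11 -0.80), and its EAPP value was 0.11. EAPP exceeded wild type KLF11 for IDH2 by 0.91 (limma adjusted p = 0.000588). ACSS1, the mitochondrial acetyl-CoA synthetase, was called with A347S at -0.69, with -0.46 for Δ486, -0.11 for EAPP and -0.50 for wild type KLF11. MCCC2, a subunit of methylcrotonyl-CoA carboxylase, had -0.37, -0.31, 0.15 and -0.55, and PPIF, cyclophilin D of the permeability pore, -0.57, -0.38, 0.03 and -0.33, none called against EV. EAPP against wild type KLF11 called 3 genes of this list higher, beside 160 of all 20961 clusters called higher. Among the 3 were IDH2 and MCCC2 (0.70, limma adjusted p = 0.00132). PPIF was called higher with EAPP than with A347S (0.60, adjusted p = 0.00112). Since these genes were named by their p against EV, the p values of their EAPP contrasts are not independent of that choice. Glutamate dehydrogenase, the best known target of SIRT4, was not measured by a cluster of its own.

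Of 27 measured substrates of nuclear and cytosolic sirtuins, A347S called 5 lower, Δ486 2 lower and 1 higher, and wild type KLF11 1 lower. TUBA1A, an α-tubulin, was lower with A347S (-0.93), Δ486 (-0.73) and wild type KLF11 (-0.59), all called, and had -0.29 with EAPP. MYC was called with A347S (-0.80) and Δ486 (-0.65), beside -0.34 for EAPP and -0.52 for wild type KLF11. RELA, the p65 subunit of NF-κB, was called with A347S alone at -0.60, and FOXO4, a forkhead factor, was called higher with Δ486 alone at 0.71, with 0.38 for A347S. Among 11 zinc-dependent deacetylases, HDAC1 was called lower with A347S (-0.70) and Δ486 (-0.59) and had -0.04 with EAPP and -0.48 with wild type KLF11. HDAC3 was called with A347S at -0.60, while HDAC6 (-0.47, -0.29, -0.05 and -0.22) and HDAC7 (-0.42, -0.31, -0.16 and -0.30) were not called with any construct.

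EAPP called 0 genes of the 6 lists against EV by limma. At an unadjusted p under 0.05, where 8.73% of all clusters stood, it had 1 of 18 genes of NAD synthesis, 1 of 19 of NAD consumption, 1 of 15 regulators, 4 of 28 mitochondrial substrates, 3 of 27 nuclear or cytosolic substrates and 0 of 11 zinc-dependent deacetylases. Median changes of the 6 lists lay between -0.16 and 0.04 for A347S, -0.16 and 0.03 for Δ486, -0.05 and 0.02 for EAPP and -0.10 and -0.03 for wild type KLF11. With A347S, Δ486 and wild type KLF11 each was nearer to 0 than the median of the sirtuins. Since that family was picked with these changes known, and its members moved both ways, nothing is read from this order. With EAPP the medians of the regulators (-0.04) and of the nuclear and cytosolic substrates (-0.05) were further from it than that of the sirtuins (-0.03).

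**Figure D5:**
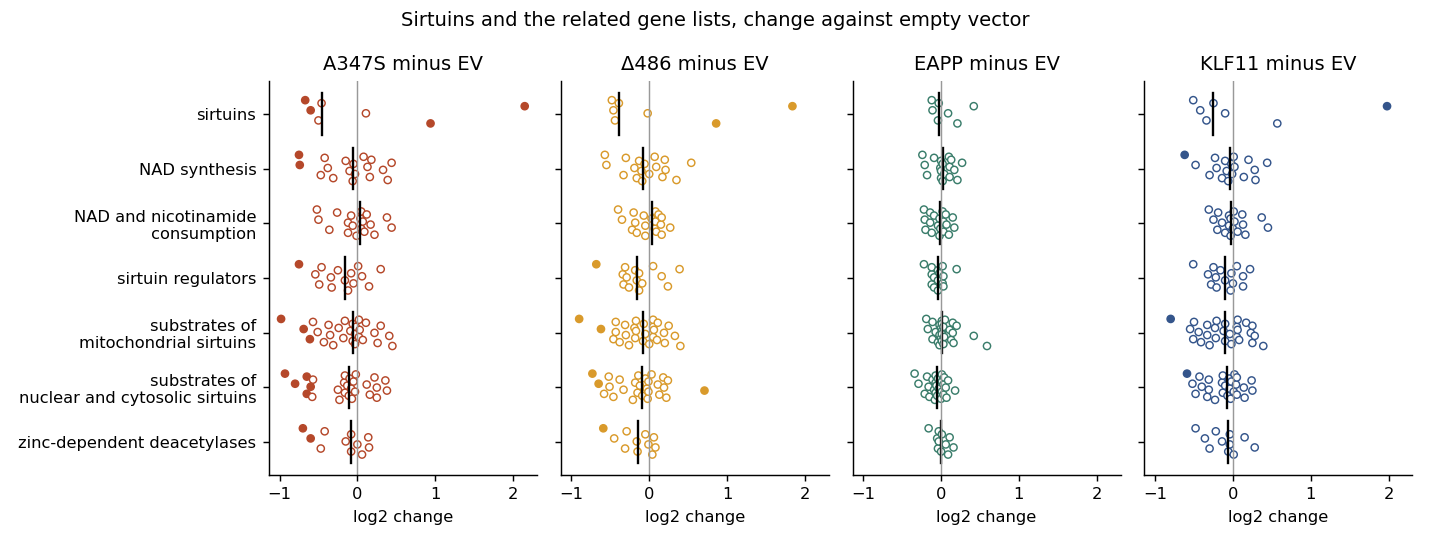
Log2 change against EV of the 7 sirtuins and of the measured genes of 6 lists, with a panel for each construct, a point for each gene (filled where called) and a bar at the list's median. SIRT4, at 2.15, 1.84 and 1.98, lies beyond every other point with A347S, Δ486 and wild type KLF11, and no point is filled with EAPP.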

How the data were processed

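The deposited values are log2 expression per transcript cluster, from 1.85 to 14.56. The authors subtracted background and normalized the array intensities by Robust Multiarray Analysis, and the submitters' processing notes name Partek 6.6. No source used here names the genome build of their annotation. Of 28869 clusters, 7908 without a gene symbol were left out, and 20961 were tested, of which 19229 carry 1 symbol and 1732 several. Gene numbers matched RefSeq for 19198, with 0 names changed. A mean for each of 5 groups was fitted to 10 arrays with limma 3.58.1 in R 4.3.3 (5 residual and 4.54 prior degrees of freedom, median standard error 0.0954), and the fit was tested on simulated data. The study gives its threshold both as a fold and as a log2 change of 1.5. The fold was used here. Named genes are the 7 members, KLF11, up to 4 genes of each list by smallest p against empty vector, and the clusters most like a member. Members and lists were chosen with earlier results of these data known. Listed genes without a cluster of their own, and so not measured, included GLUD1, NR1H2, NR1H4 and RBBP8, and some others are not reported here. Alternatives covered scaling, moderation, dim clusters, clusters without a symbol, the fold, a replicate block and leaving out each array. Arrays give no read depth, and their number limits the precision. Plots were made in Python 3.11.15 with matplotlib 3.10.9.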

Additional observations from a re-analysis of the deposited data

How the results depend on the processing

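Over 17 other settings, 60 of the 70 changes of single members kept their direction in every one. For 1146 values both direction and side of the threshold were kept, 25 newly passed it, 6 no longer did and 13 turned their sign. Most of the 25 came from dropping the fold, a looser rule under which no call can be lost. Direction could not turn in settings that leave the difference of means as it was. Among these were a changed moderation, no fold, and the loss of an array of a condition outside the comparison. The 13 belonged to 10 changes near 0, of which 0 passed the adjusted p, and 12 arose with an array left out. With single arrays left out, SIRT6 with Δ486 against EV lay between -0.05 and 0.01, and with EAPP against EV SIRT3 lay between -0.29 and 0.05, SIRT5 between -0.09 and 0.03 and SIRT7 between -0.09 and 0.00 (0.00 after quantile scaling). Against wild type KLF11, SIRT4 lay between -0.04 and 0.38 with A347S, and with Δ486 SIRT4 lay between -0.34 and 0.07, SIRT3 between -0.02 and 0.13 and SIRT7 between -0.13 and 0.03. SIRT7 lay between -0.15 and 0.01 for A347S against Δ486, and SIRT6 between -0.11 and 0.05 for EAPP against A347S. SIRT4 kept its calls in all of them. Without the fold threshold the members called were 5 for wild type KLF11 and 6 for Δ486 against EV, and 5, 6 and 5 for EAPP against wild type KLF11, A347S and Δ486. With single arrays left out they were 3 to 4 for A347S, 2 for Δ486, 0 for EAPP and 1 to 2 for wild type KLF11 against EV, 1 for EAPP against wild type KLF11, 2 to 3 against A347S and 1 to 2 against Δ486, and 0 for the remaining comparisons. SIRT1 was called between EAPP and A347S without the first A347S array (0.66) or the second EAPP array (0.60), and SIRT3 without the first EAPP array (0.65). With the adjusted p alone and single arrays left out, 2 to 5 members passed for wild type KLF11 and 4 to 6 for Δ486 against EV, the losses being among SIRT1, SIRT3 and SIRT7.

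After cyclic loess scaling, the calls of A347S against EV over all clusters were 893 higher and 907 lower (761 and 1121 as deposited), and those of EAPP against A347S were 466 higher and 768 lower (617 and 643 as deposited). Same-numbered arrays did not in general deviate alike, since the correlation of same-numbered deviations was -0.348 to 0.145 over 10 pairs of conditions and over 0.1 in 1. The lowest was that of Δ486 with EAPP. Arrays that vary together under different numbers would also give a negative value, and a block on the numbers cannot remove that. With the replicate block the members called were 4 for A347S, 2 for Δ486, 0 for EAPP and 1 for wild type KLF11, the same as without it, and all clusters called were 1883, 1171, 1 and 831 in that order, against 1882, 1176, 1 and 837. The planned comparison with a member's next brightest cluster gave no value, since each had 1 cluster. With an array left out, the other array of its group is assumed to vary like the rest. The arrays carry no detection call, so the level below which SIRT4 could not be measured is not known.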

Other observations

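Genes that flank the sirtuins with the widest changes were read as well. They were the nearest protein-coding genes by order of start that had a cluster of their own. Any nearer gene without such a cluster was passed over. Around SIRT4, GCN1, an activator of the amino acid starvation kinase GCN2, stood at -0.15 with A347S, -0.17 with Δ486, -0.03 with EAPP and -0.10 with wild type KLF11, and the focal adhesion gene PXN at -0.22, -0.21, -0.10 and -0.16. On its other side, the pancreatic phospholipase PLA2G1B stood at 0.38, 0.22, 0.15 and -0.05 and the RNA binding gene MSI1 at 0.09, 0.19, 0.19 and 0.03. None of these was called, whereas SIRT4 between them changed by 2.15, 1.84, 0.42 and 1.98. Around SIRT2, the inhibitor of NF-κB NFKBIB had -0.39, -0.39, 0.07 and -0.49 and the mitochondrial seryl-tRNA synthetase SARS2 -0.42, -0.42, 0.05 and -0.27, opposite in sign to SIRT2 except with EAPP. On its other side, the splicing regulator HNRNPL had -0.24, -0.25, 0.02 and -0.23, while RINL, next to SIRT2, had its sign except with EAPP (0.20, 0.26, -0.05 and 0.09). None of the 4 was called.

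SIRT3 had neighbours that were called lower too. RIC8A, a chaperone of G protein α subunits, had -0.84 with A347S and -0.62 with Δ486, both called, with -0.21 for EAPP and -0.48 for wild type KLF11. PGGHG had -0.88, -0.81, -0.32 and -0.85, called in all but EAPP, while BET1L (-0.26 to -0.13) and NLRP6 (-0.01 to 0.27) were not called with any construct. The neighbours of SIRT1 held no call. HERC4 shared its direction at -0.43, -0.32, -0.13 and -0.33, MYPN ran the other way at 0.54, 0.34, 0.28 and 0.52, and LRRTM3 (-0.08 to 0.15) and DNAJC12 (-0.01 to 0.29) were mostly above 0.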
